A study of Drosophila melanogaster with 12 samples.

Results

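The genes described here are CNMa and Dh44, which encode secreted peptides, and the receptor genes CNMaR, Dh44-R1 and Dh44-R2. They were taken as every probe set whose single gene symbol on the array's annotation is 1 of these 5 names. Of the 5 genes, 4 were measured, by 5 probe sets, among 11982 genes with 13647 such probe sets in all. No probe set carries the single symbol CNMaR, so that gene was not analysed here. The set was chosen by measured values, the high CNMa level in the Pc/ph+PTIP cells and the low Dh44-R2 level after the single knockdowns, so those values are given as a description, with no test.

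RNA came from Kc167 cells, a Drosophila line of embryonic origin with hemocyte (blood cell) character, and was hybridised to Affymetrix arrays. The study asks how PTIP, a protein of histone H3 lysine methyltransferase complexes, bears on repression by Polycomb, a system of chromatin proteins that keeps developmental genes silent. The 12 arrays form 4 groups of 3: Kc167 cells alone (control), a PTIP knockdown (PTIP), a joint knockdown of polycomb and polyhomeotic (Pc/ph), which are subunits of Polycomb repressive complex 1, and a knockdown of all of these (Pc/ph+PTIP). Per the labels, 15 µg of double-stranded RNA per well was given to 1000000 cells, serum was added to 5% after 1 hour, and cells were kept for 6 days. The sources used here do not say whether the control received any double-stranded RNA, and each group is a population of 1 cell line rather than of a tissue.

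CNMa encodes CNMamide, a short amidated peptide that acts through CNMaR, a G protein-coupled receptor. In adult flies CNMa is known from gut and brain, and in the gut it takes part in the response to missing amino acids. Dh44 encodes a diuretic hormone related to vertebrate corticotropin-releasing factor. Its receptors, Dh44-R1 and Dh44-R2, are secretin-family G protein-coupled receptors that raise cAMP. Dh44-R1 is known mainly from the brain, and Dh44-R2 from the Malpighian tubules, which are the fly's renal organ, and the gut.

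All levels are log2 signals from the RMA method, so 1 unit is a doubling. As a background reference served 9 Y-linked probe sets, since the line is female, and a gene was counted as above background on an array where it lay above the highest of them, which was 5.11 to 5.57. The replicate 1 arrays of all 4 groups stood apart, with array medians of 5.62 to 5.77 against 5.83 to 5.88 on the other 8 and upper quartiles of 8.65 to 8.95 against 9.62 to 9.74. Group differences were therefore fitted in limma with the replicate number as a block, and calls were made at a Benjamini-Hochberg adjusted p under 0.05 over 18769 probe sets. Pc RNA was 17.8 to 21.8% of the same-numbered control after Pc/ph knockdown. That fall was called (limma, adjusted p = 0.000251), though not without the replicate block (0.494). After the joint knockdown with PTIP the Pc level was 45.5 to 70.9% of control, which missed the threshold (limma, adjusted p = 0.0601). PTIP RNA was 60.6 to 87.8% of control in the PTIP arrays, a difference that was not called (limma, adjusted p = 0.296). In the Pc/ph+PTIP arrays 1 to 3, PTIP RNA stood at 49.8, 72.6 and 110.6% of the same-numbered control (limma, adjusted p = 0.339). The library labelled replicate 3 was thus above the control level. Neither Pc nor PTIP RNA was called lower than control in the Pc/ph+PTIP cells, the group with the high CNMa signal. Against the same-numbered Pc/ph array PTIP RNA stood at 56.8, 103.4 and 108.6% (adjusted p = 0.749), so it was lower only in replicate 1. Of 10 hemocyte markers, 9 were above background on every array. Of 11 measured neuron markers, elav, brp and nSyb were above background on all 12 arrays, VGlut on 6 and Vmat on 5. The other neuron markers, ple, Gad1, onecut, fne, VAChT and ChAT, were so on no array.

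CNMa was near background in the control and PTIP cells, higher in the Pc/ph cells and far higher in the Pc/ph+PTIP cells. Its probe set, 1638184_at, read 5.71, 5.74 and 5.48 on control arrays 1 to 3. On the PTIP arrays it read 5.61, 5.52 and 5.65. Those 6 values overlap, and on control array 3 CNMa lay below the highest Y-linked probe set, by 0.01. On the Pc/ph arrays it read 7.45, 6.45 and 6.80, and on the Pc/ph+PTIP arrays 11.15, 9.49 and 9.72. Every Pc/ph value lay above every control value, as was so for 2.69% of all probe sets. Every Pc/ph+PTIP value lay above every value of the other groups. Among all probe sets, 3.67% were so separated above control in the Pc/ph+PTIP cells, 3.3% above Pc/ph and 1.22% above PTIP, and nothing is read from these shares, since the values chose the gene.

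**Figure D1:**
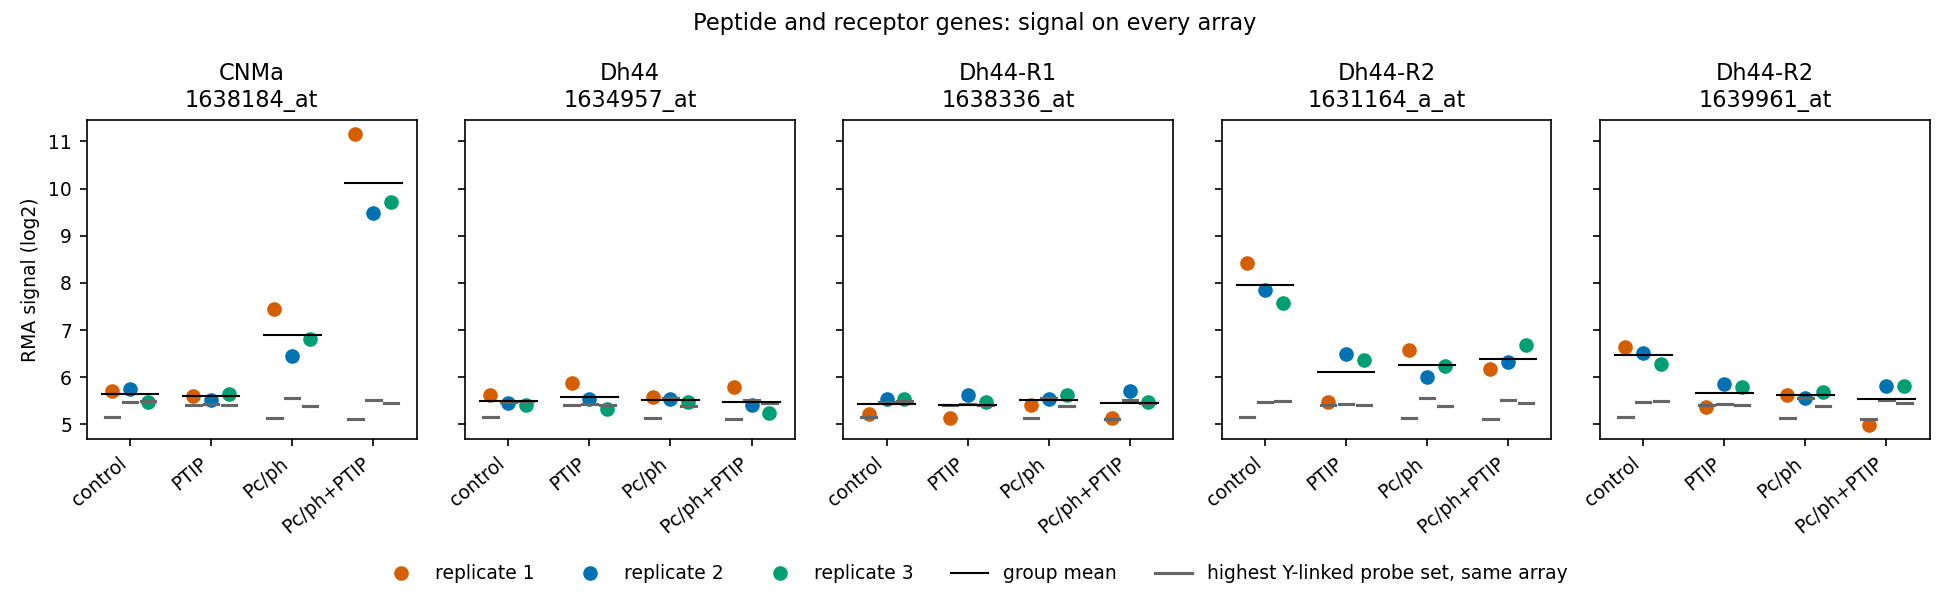
RMA signal (log2, vertical axis) of each probe set on every array, by group, with replicates 1 to 3 as coloured points, the group mean as a black line and the highest Y-linked probe set of the same array as a short grey line. CNMa sits at 9.49 to 11.15 in the Pc/ph+PTIP group, Dh44-R2 is highest in the control group, and Dh44 and Dh44-R1 stay near the grey lines in every group.

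The group means of CNMa were 5.64 ± 0.14 in control, 5.60 ± 0.07 in PTIP, 6.90 ± 0.51 in Pc/ph and 10.12 ± 0.90 in Pc/ph+PTIP cells (SD, n = 3). The Pc/ph+PTIP mean exceeded control by 4.48 ± 0.28 (SE of the fit), a 22.3-fold difference in signal. The control signals lay from 0.01 below to 0.56 above the highest Y-linked probe set, so the fold is one of signal and not of RNA amount. Among all 18769 probe sets the difference from control was the largest positive difference, as was that from the PTIP cells, 4.53 or 23.03-fold. From the Pc/ph cells it was 3.22, or 9.30-fold, which ranked 2. These ranks describe the values by which CNMa was chosen, and 5.57% of all probe sets were called in the comparison with control, 5.5% in that with Pc/ph and 0.032% in that with PTIP. In a bulk RNA sample, a change in the number of cells that express a gene and a change in RNA per cell cannot be told apart.

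The size of the CNMa difference varied between replicates more than its direction did. Against the control of the same number, the Pc/ph+PTIP arrays were higher by 5.45, 3.74 and 4.24, and against the Pc/ph array of the same number by 3.70, 3.03 and 2.92. Replicate 1 gave the largest value in both. Without the Pc/ph+PTIP replicate 3 array, in which PTIP RNA was above the control level, the fitted difference from control was 4.64. With replicates 2 and 3 alone it was 3.99, and in neither of these was PTIP RNA below that of the same-numbered Pc/ph array. Pc itself was higher in the Pc/ph+PTIP cells than in the Pc/ph cells, by 1.59 (limma, adjusted p = 0.00208; 0.995 without the replicate block), so the cells with the higher CNMa signal were those with the weaker Pc depletion. The part of Pc depletion in the CNMa values was not tested.

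Whether Pc/ph knockdown alone raised CNMa was tested, although this comparison shares its arrays with those that chose the gene, in which Pc/ph+PTIP cells were set against control and Pc/ph cells, and so is not independent of the choice. The difference from control was 1.26 ± 0.28 or 2.40-fold, with a 95% interval of 0.64 to 1.88, and it missed the threshold (limma, adjusted p = 0.0634). All 3 same-numbered differences were positive, at 1.75, 0.71 and 1.32, and the groups did not overlap, as was so for 2.69% of all probe sets in this direction. The call depended on settings. CNMa passed with replicates 2 and 3 alone, where the difference was 1.02 (adjusted p = 0.00129), with variances that follow the mean level (adjusted p = 0.0272), without Pc/ph+PTIP replicate 1 (0.00766) and without PTIP replicate 1 (0.0324). It did not pass without the replicate block (limma, adjusted p = 0.824), with quantile (0.136) or cyclic loess (0.0502) normalisation, or with dim probe sets filtered out (0.0502). Of the 12 fits that left out 1 array, 10 did not call it. After PTIP knockdown alone the difference was -0.05 ± 0.28 with an interval of -0.67 to 0.57 (adjusted p = 0.961), and the same-numbered differences of -0.10, -0.22 and 0.17 had both signs.

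Adding the separate PTIP and Pc/ph differences to the control would give CNMa levels of 7.36, 6.24 and 6.98 for the 3 replicates. The measured levels of 11.15, 9.49 and 9.72 exceeded these sums by 3.80, 3.25 and 2.75. The fitted interaction, the PTIP difference on a Pc/ph background less the PTIP difference on the control background, was 3.26 ± 0.40. It was the largest positive one of the 18769 probe sets, again on values by which the gene was chosen, and 0.186% of probe sets were called in it. The control and PTIP levels in these sums were near background, where a change in RNA amount may show as little change in signal. The sums and the interaction are therefore of signal, and no departure from the sum in RNA amount is read from them.

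Dh44-R2 was the receptor with a clear signal in control cells, and it was lower in all 3 knockdown groups, in the Pc/ph+PTIP cells as well as after the single knockdowns. Its brighter probe set, 1631164_a_at, read 8.42, 7.85 and 7.57 on control arrays 1 to 3. It read 5.48, 6.50 and 6.36 on the PTIP arrays and 6.57, 6.00 and 6.24 on the Pc/ph arrays. On the Pc/ph+PTIP arrays the values were 6.17, 6.33 and 6.69. No knockdown array reached the lowest control array, while the 3 knockdown groups overlapped with each other. Groups lay wholly below control for 3.73% of all probe sets in PTIP, 2.79% in Pc/ph and 4.08% in Pc/ph+PTIP cells. On all 12 arrays this probe set was above the highest Y-linked one.

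The mean level fell from 7.95 ± 0.44 in control cells to 6.40 ± 0.26 in Pc/ph+PTIP cells (SD, n = 3), and stood at 6.12 ± 0.55 in PTIP and 6.27 ± 0.28 in Pc/ph cells. These are 34.2, 28.1 and 31.2% of the control signal. Against the same-numbered control the PTIP arrays differed by -2.94, -1.35 and -1.20. The Pc/ph arrays differed by -1.85, -1.85 and -1.33, and the Pc/ph+PTIP arrays by -2.25, -1.52 and -0.88. All 9 differences were negative, and replicate 3 gave the smallest one in each group. The fitted differences of -1.83 ± 0.30 for PTIP and -1.68 ± 0.30 for Pc/ph are among the values that chose the gene. They ranked 42 and 15 among the negative differences, beside 6.52 and 1.53% of all probe sets called.

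The Pc/ph+PTIP cells were not used to choose Dh44-R2, although their comparison shares the control arrays with those that were, and so is not independent of the choice. The difference from control was -1.55 ± 0.30 (limma, adjusted p = 0.0155), and the probe set was called lower, as were 2.86% of all probe sets. That call was lost without the replicate block (adjusted p = 0.0930). Among the fits that left out 1 array, it was lost without replicate 1 (0.0613) or 2 (0.0505) of the control, and without replicate 1 (0.0776) or 2 (0.0722) of the Pc/ph+PTIP group. The difference in these fits ran from -1.82 to -1.22.

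The other Dh44-R2 probe set, 1639961_at, was dimmer and was also highest in control cells, with smaller differences. Its control values were 6.63, 6.52 and 6.28. It read 5.38, 5.85 and 5.79 on the PTIP arrays, 5.62, 5.57 and 5.68 on the Pc/ph arrays and 4.99, 5.82 and 5.81 on the Pc/ph+PTIP arrays. All knockdown values were below all control values, as was so for 3.73% of all probe sets in PTIP, 2.79% in Pc/ph and 4.08% in Pc/ph+PTIP cells. The PTIP and Pc/ph values are among those that chose the gene, so this probe set is no independent repeat. PTIP array 1 and Pc/ph+PTIP array 1 fell under the highest Y-linked probe set. The group means were 57.2, 55.3 and 52.3% of control in the PTIP, Pc/ph and Pc/ph+PTIP cells, so the 3 knockdown groups stood in the opposite order to that of the brighter probe set. The tested difference, Pc/ph+PTIP against control, was -0.94 ± 0.19 (limma, adjusted p = 0.0182; 0.189 without the replicate block). This call too was lost when replicate 1 (0.0667) or 2 (0.0527) of the control, or replicate 1 (0.0548) of Pc/ph+PTIP, was left out. With replicate means taken off, both Dh44-R2 probe sets correlated at r = 0.93 over the 12 arrays, which they share.

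**Figure D2:**
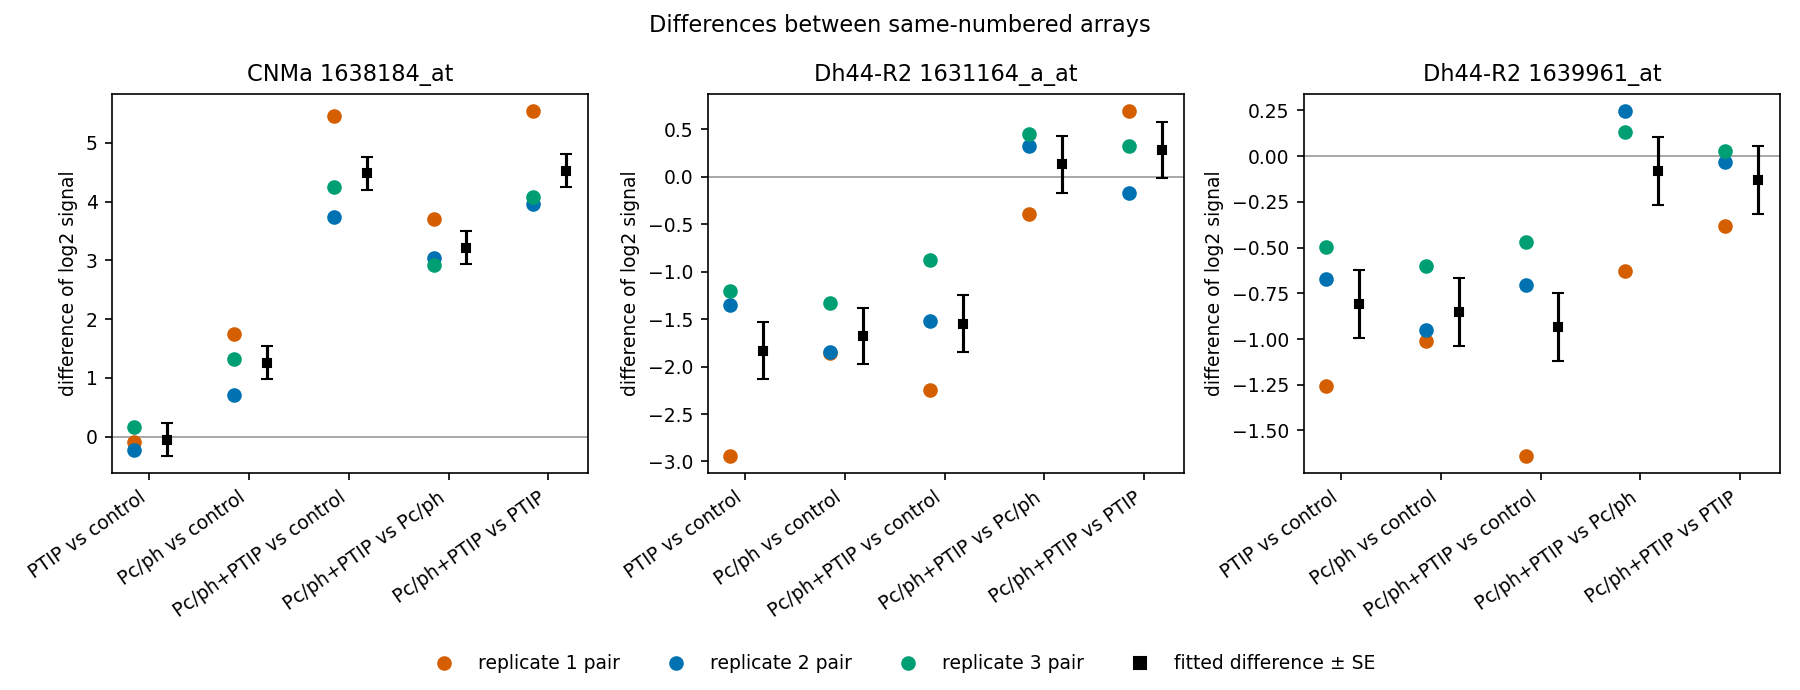
Differences of log2 signal (vertical axis, a separate scale in each panel) between arrays of the same replicate number, as coloured points, with the fitted difference ± SE as black squares, for CNMa and both Dh44-R2 probe sets in 5 comparisons. CNMa lies at 3.74 to 5.45 above control in the Pc/ph+PTIP pairs, and all Dh44-R2 differences from control are negative.

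Pc/ph+PTIP cells and the single knockdowns differed in Dh44-R2 by less than 1 SE. The Pc/ph+PTIP mean stood 0.13 ± 0.30 above Pc/ph cells and 0.28 ± 0.30 above PTIP cells by the brighter probe set, and by the dimmer one it stood at -0.08 ± 0.19 and -0.13 ± 0.19 from them, values that involve the arrays used to choose the gene and were not tested. Adding both single differences to the control would put the brighter probe set at 3.63, 4.65 and 5.03, below the highest Y-linked signal of every array. Signals that low are not measurable here, so no departure from the sum is read from the measured values of 6.17, 6.33 and 6.69.

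Hemocyte markers also differed between these groups. Their summed level, on the log2 scale, was 14.13 to 14.95 in control, 13.84 to 14.59 in PTIP, 15.02 to 15.48 in Pc/ph and 14.21 to 14.75 in Pc/ph+PTIP cells. Of the 10 markers, 5 fell in PTIP cells, among them the phagocytic receptor genes eater, by 1.68, and NimC1, by 2.24. In Pc/ph cells 1 rose, and in Pc/ph+PTIP cells 3 fell. Over all probe sets 6.52, 1.53 and 5.57% were called in these comparisons. The ranges of the summed level overlapped between control, PTIP and Pc/ph+PTIP cells, and the Pc/ph range lay above them. It is a sum of linear signals, so the brightest markers weigh most in it. The neuron markers, 11 of 12 measured, had 0 calls in the 3 comparisons with control by limma, with 1, 0 and 0 at an unadjusted p under 0.05 and 0 without the block. Of these elav, brp and nSyb were above background on every array, nSyb at a low 5.84 to 6.53. Among glia markers nrv2 rose in all 3 knockdown groups, moody rose in the Pc/ph and Pc/ph+PTIP cells and Gs2 fell in the PTIP and Pc/ph+PTIP cells, while repo, the defining glial factor, was above background on no array. Of 6 measured Malpighian tubule markers, ClC-a and Irk2 were above background on every array and pHCl-2 on none. The signals of ClC-a, at 5.72 to 6.44, and Irk2, at 5.85 to 6.18, were low. The marker tio rose in the Pc/ph cells, by 0.52 (limma, adjusted p = 0.0286). Without the replicate block the hemocyte, glia and tubule markers had 0 calls against control. Of 4 measured gut markers, betaTry was above background on all 12 arrays, pros on 2, nub on 1 and the progenitor factor esg on none. The betaTry signal was low, at 5.6 to 6.2. The part of these marker differences in the peptide and receptor values was not tested.

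Dh44, the ligand of Dh44-R2, was at or near background. Its probe set, 1634957_at, read 5.62, 5.45 and 5.41 in control, 5.87, 5.54 and 5.32 in PTIP, 5.57, 5.54 and 5.47 in Pc/ph and 5.80, 5.41 and 5.24 in Pc/ph+PTIP cells. It was above the highest Y-linked probe set on 6 of 12 arrays, and the 4 groups overlapped. Dh44-R1, probe set 1638336_at, read 5.23, 5.54 and 5.55 in control and 5.14, 5.62 and 5.49 in PTIP cells. In Pc/ph cells it read 5.42, 5.53 and 5.63, and in Pc/ph+PTIP cells 5.14, 5.72 and 5.47. It exceeded the highest Y-linked probe set on 10 of 12 arrays, by small margins, and its groups overlapped too. Over both genes and 6 comparisons limma called 0 of 12 tests, with 0 at an unadjusted p under 0.05 and 0 without the block. The differences ran from -0.13 to 0.09 and their 95% intervals, in the fit with the block, from -0.43 to 0.30. Larger changes in signal lay outside these intervals, which depend on the block. In the comparisons with control the SE was 0.10 for Dh44 and 0.09 for Dh44-R1 with the block, and 0.17 and 0.18 without it. At signals this close to background, a change in RNA amount may show as little change in signal.

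The other neuropeptide precursor genes had few calls. Of 48 listed, 37 were measured, and 2 were called in PTIP cells, both lower, where 6.52% of all probe sets were called. In Pc/ph cells limma called 0, with 2 at an unadjusted p under 0.05, beside 1.53% of all probe sets. In Pc/ph+PTIP cells 1 was called, lower, beside 5.57%. The list medians were 0.06, 0.00 and 0.01 in these 3 comparisons, against 0.03, 0.00 and 0.01 over all probe sets. Orcokinin, a precursor of peptides of the gut and brain, fell by 1.30 in PTIP cells (limma, adjusted p = 0.0152) and by 1.43 in Pc/ph+PTIP cells (adjusted p = 0.0103). It read 6.36, 8.41 and 8.20 in control, 5.76, 6.86 and 6.46 in PTIP, 5.88, 7.59 and 7.67 in Pc/ph and 5.81, 6.58 and 6.27 in Pc/ph+PTIP cells. Replicate 1 was the lowest array of every group, and the PTIP call was lost without control replicate 2, control replicate 3, PTIP replicate 2 or PTIP replicate 3 (adjusted p from 0.0508 to 0.0752). The Pc/ph+PTIP call was lost without control replicate 3, Pc/ph+PTIP replicate 2 or Pc/ph+PTIP replicate 3 (0.0545 to 0.0637). Ptth, the brain hormone that drives ecdysone synthesis, fell by 0.65 in PTIP cells (adjusted p = 0.0254), a call lost without control replicate 1 or control replicate 3 (0.0597 to 0.109). The highest value of any listed precursor against control was 0.45 in Pc/ph and 0.40 in Pc/ph+PTIP cells, next to 1.26 and 4.48 for CNMa. The 4.48 is a value by which CNMa was chosen, and the 1.26 shares arrays with that choice, so nothing is read from the contrast.

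Peptide receptor genes other than the Dh44 receptors had a single call. Of 37 listed, 23 were measured. Limma called 0 in PTIP and 0 in Pc/ph cells, with 1 and 2 at an unadjusted p under 0.05, and 1 in Pc/ph+PTIP cells. That is 4.35% of those measured beside 5.57% of all probe sets, while 6.52 and 1.53% were called over all probe sets in the PTIP and Pc/ph cells. The gene called was Lgr4, a receptor for a relaxin-like peptide, which fell by 0.26 (adjusted p = 0.0392). It read 5.63, 5.64 and 5.75 in control and 5.43, 5.36 and 5.47 in Pc/ph+PTIP cells, all near background, and the call held in 2 of 12 fits that left out 1 array. The lowest value of any listed receptor was -0.21 in PTIP and -0.21 in Pc/ph cells, next to -1.83 and -1.68 for the brighter Dh44-R2 probe set. Those Dh44-R2 values are among the ones that chose the gene, so nothing is read from the contrast.

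Of 16 genes for the processing and release of peptides, 14 were measured. In PTIP cells 1 was called, 7.14% of those measured beside 6.52% of all probe sets. It was nemy, which encodes a cytochrome b561 protein linked to peptide amidation, and it rose by 0.73 (limma, adjusted p = 0.0281). On the control arrays nemy read 4.82, 5.33 and 5.43, each below the highest Y-linked probe set of the same array. In PTIP cells nemy read 6.07, 5.82 and 5.88, so the rise is one of signal and not of RNA amount. Its call was lost without any 1 of the control arrays (0.0764 to 0.119). In Pc/ph and in Pc/ph+PTIP cells limma called 0 and 0, with 1 and 2 at an unadjusted p under 0.05, beside 1.53 and 5.57% of all probe sets. The genes Phm, Pal1 and Pal2, whose enzymes amidate peptides such as CNMamide, were measured and had no call against control.

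Genes of G protein and cAMP signalling, the route downstream of the Dh44 receptors, had 3, 4 and 1 calls in PTIP, Pc/ph and Pc/ph+PTIP cells. Of 28 listed, 21 were measured. In PTIP cells 3 were called, all lower, 14.3% of those measured beside 6.52% of all probe sets. In Pc/ph cells 2 rose and 2 fell, 19% beside 1.53%, and in Pc/ph+PTIP cells 1 was called, lower, 4.76% beside 5.57%. Ac76E, an adenylyl cyclase that makes cAMP, fell in all 3 groups, by 0.61 in PTIP (limma, adjusted p = 0.0211), by 0.90 in Pc/ph (0.00657) and by 0.51 in Pc/ph+PTIP cells (0.0467). The last held in 3 of 12 fits that left out 1 array, the PTIP call in 8 and the Pc/ph call in 11. Ac76E read 6.12, 6.87 and 6.48 in control and 5.17, 6.32 and 6.16 in PTIP cells. It read 5.16, 5.81 and 5.79 in Pc/ph and 5.33, 6.24 and 6.36 in Pc/ph+PTIP cells. PTIP array 1 lay below its highest Y-linked probe set, and Pc/ph array 1 only just above its own, so background limits those falls. Galphas, the G protein subunit that activates adenylyl cyclase, fell by 0.41 in PTIP cells (0.0418), which held in 3 of 12 such fits.

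Pde8, a phosphodiesterase that breaks down cAMP, went opposite ways after the single knockdowns. It read 8.33, 9.54 and 9.28 in control, 6.86, 8.79 and 8.11 in PTIP, 9.17, 10.36 and 10.52 in Pc/ph and 7.97, 9.07 and 8.997 in Pc/ph+PTIP cells. In each replicate number the PTIP array was lowest and the Pc/ph array highest. It fell by 1.13 in PTIP cells (limma, adjusted p = 0.00317), in all 12 fits that left out 1 array, and rose by 0.96 in Pc/ph cells (0.0124), in 9 of 12. That rise was not called without control replicate 2, control replicate 3 or Pc/ph replicate 3 (0.0719 to 0.0793). Pka-C3, a catalytic subunit of the cAMP-dependent kinase family, rose by 0.88 in Pc/ph cells (0.00356), from 5.46, 5.87 and 5.88 to 5.96, 6.98 and 6.91, and was called in all 12 such fits. The adenylyl cyclase gene Ac13E fell by 0.66 in Pc/ph cells (0.0209), from 7.39, 7.76 and 7.70 to 6.94, 6.98 and 6.94, and was called in 8 of 12. Without the replicate block, 0.272% of all probe sets were called in PTIP, 0.197% in Pc/ph and 0.272% in Pc/ph+PTIP cells, and none of the 4 lists had a call against control.

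**Figure D3:**
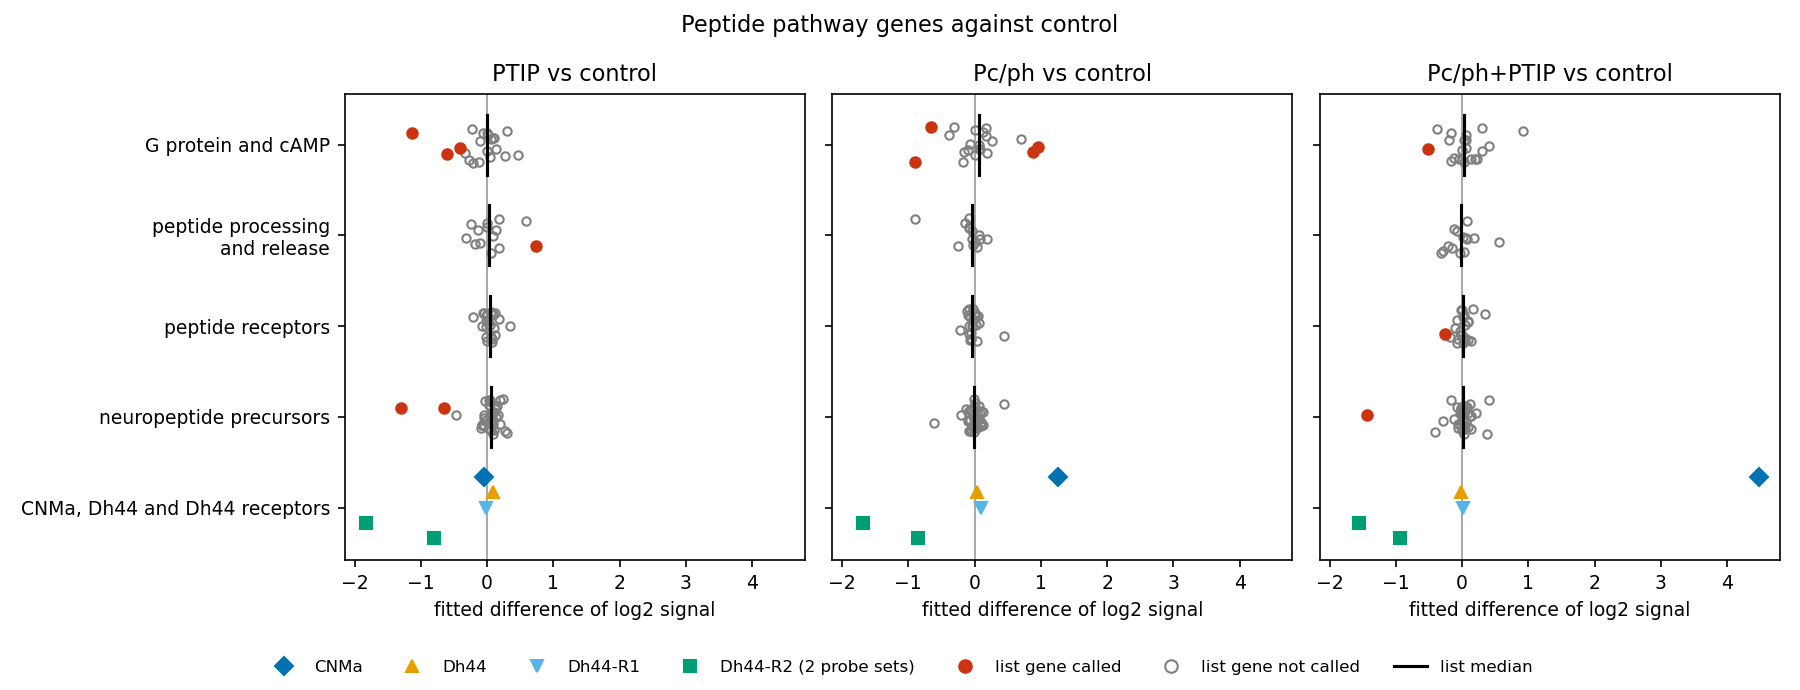
Fitted differences of log2 signal from control (horizontal axis, the same in all panels) for the measured genes of 4 pathway lists and for CNMa, Dh44, Dh44-R1 and Dh44-R2, in PTIP, Pc/ph and Pc/ph+PTIP cells. Filled red points are list genes called by limma with the replicate block, open points were not called, and black lines are list medians. CNMa, at 4.48 in the right panel, lies beyond every list gene, on a value by which it was chosen.

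The nearest measured genes around the members in the fly gene table had no call against control. These 20 genes, 2 on each side of each of the 5, gave 0 calls in each of these 3 comparisons by limma, with 2, 0 and 1 at an unadjusted p under 0.05 and 0 without the block. Their differences ran from -0.13 to 0.55 in PTIP, -0.31 to 0.20 in Pc/ph and -0.10 to 0.40 in Pc/ph+PTIP cells. The 2 on 1 side of CNMa, Mtch and CG4306, lie 6 and 7 genes away. In Pc/ph+PTIP against Pc/ph cells 2 of the 20 were called, SpdS near Dh44, higher by 0.56 (limma, adjusted p = 0.0378), and CG8545 near Dh44-R2, higher by 0.64 (0.0385), beside 5.5% of all probe sets, and neither was called without the replicate block. The second gene after CNMa is AstC-R1, a receptor for another peptide, allatostatin C. Its differences were 0.12, 0.06 and 0.04 where CNMa had -0.05, 1.26 and 4.48. However, AstC-R1, CG32198 and CG4306, all near CNMa, had mean levels of 5.17, 5.37 and 5.21, below the highest Y-linked mean of 5.38. CG18180 near CNMaR and CG30075, Obp50e and CG10104 near Dh44-R1 lay below that mean too. At such signals a change in RNA amount may show as little change in signal, so nothing is read from their lack of calls. Scm, a Polycomb group gene that lies beside Dh44, had differences of 0.06, 0.06 and 0.17.

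The genes whose pattern was most like a member's were ranked by Pearson's r over the 12 arrays, with replicate means taken off, among 315 genes with named symbols whose group means spanned at least 1 log2 unit. These correlations share the arrays and are a description. For CNMa they were bero (r = 0.92), a Ly6-family membrane protein gene, Smvt (0.90), a vitamin transporter gene, ap (0.89), the LIM-homeobox gene apterous, croc (0.84), a forkhead factor gene, and Cyp6a2 (0.83), a cytochrome P450 gene. All 5 were highest in Pc/ph+PTIP cells, at 2.39, 2.25, 1.34, 1.19 and 1.56 above control, smaller differences than that of CNMa. In the Pc/ph cells they stood at 1.09, 0.14, 0.52, 0.35 and 0.51, against 1.26 for CNMa. With replicate means kept, the same 5 genes led.

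For the brighter Dh44-R2 probe set the 5 were egr (r = 0.98), the fly tumor necrosis factor gene, Zaf1 (0.96), a zinc finger gene, daw (0.96), a ligand gene of the activin branch, Treh (0.96), which encodes trehalase, and wnd (0.96), a MAP kinase kinase kinase gene. Each was highest in control cells and lower by 1 log2 unit or more in every knockdown group. The differences of egr were -1.77 in PTIP, -1.42 in Pc/ph and -1.55 in Pc/ph+PTIP cells, close in size to the -1.83, -1.68 and -1.55 of Dh44-R2. With replicate means kept, 2 of these 5 genes remained among the top 5. Dh44, Dh44-R1 and the dimmer Dh44-R2 probe set spanned less than 1 log2 unit and were not ranked. CNMa and Dh44-R2 correlated with each other at r = -0.29 and r = -0.52 for the brighter and the dimmer probe set.

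**Figure D4:**
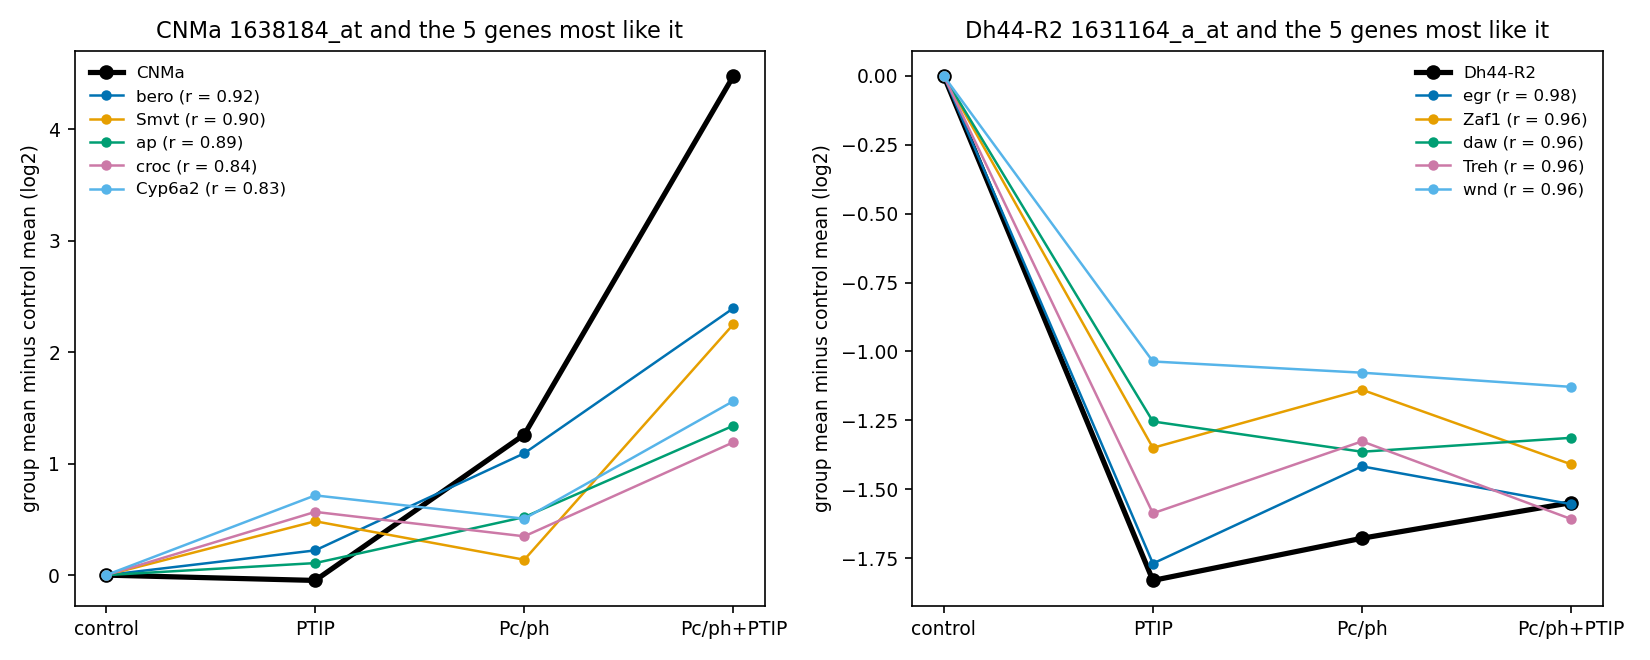
Group mean minus control mean (log2, vertical axis) in the 4 groups for CNMa (left) and the brighter Dh44-R2 probe set (right), in black, with the 5 genes whose pattern over the 12 arrays was most like each. CNMa and its 5 genes are all highest in Pc/ph+PTIP cells, with CNMa at 4.48 and bero next at 2.39, while Dh44-R2 and its 5 genes are low in all 3 knockdown groups.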

How the data were processed

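The deposited values are log2 signals, 1 per probe set and array, made by the authors with RMA per the submitters' processing notes, which also name limma. The sources used here give neither versions nor whether all arrays were normalised together. No further normalisation was applied. Of 18952 probe sets, 183 array controls were set aside, and 13647 of the other 18769 have 1 gene symbol. A gene table of Drosophila Release 6 gave names and neighbours only.

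Group means were fitted to all 12 arrays in limma 3.58.1 under R 4.3.3, with the replicate number as a block and 6 residual degrees of freedom. Tests were two-sided, with Benjamini-Hochberg adjustment over 18769 probe sets within each comparison. Lists used 1 probe set per gene, that with the highest mean. The 18 same-number correlations of deviations from group means were 0.489 to 0.880, and 9 of 12 arrays were closest to one of their own number. With replicate 1 apart in every group, such correlations can be positive without any pairing of numbers 2 and 3. Replicate 2 minus 3 differences correlated between groups at only -0.25 to 0.242. The values thus set replicate 1 apart and do not show that numbers 2 and 3 are paired. The labels do not say whether replicates are separate cultures, so the p-values reflect only the spread among these arrays, and 3 per group limit the precision. The method was tested on simulated data.

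Genes named are the members, list genes called against control (up to 3 per list, direction and comparison), 5 genes of most similar pattern and 2 measured neighbours on each side. Members and lists were chosen with earlier results of these data known. Alternatives were no block, quantile and cyclic loess normalisation, a filter on dim probe sets, variances with a trend, replicates 2 and 3 only and leaving out each array.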

Additional observations from a re-analysis of the deposited data

How the results depend on the processing

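Most counts of calls moved with the replicate block and with the replicates used. Leaving the block out cannot move a fitted difference here, since every group holds each replicate number once, so the unchanged differences say nothing of stability. Without the block, limma called 51, 37, 51, 56, 6 and 1 probe sets in PTIP, Pc/ph and Pc/ph+PTIP against control, Pc/ph+PTIP against Pc/ph, Pc/ph+PTIP against PTIP and the interaction, in place of 1224, 287, 1046, 1033, 6 and 35. The Dh44-R2 differences in Pc/ph+PTIP cells, -1.55 and -0.94, then had adjusted p of 0.0930 and 0.189. With replicates 2 and 3 only, the counts were 2566, 1066, 2194, 2925, 67 and 261, CNMa was called in Pc/ph cells at 1.02, and the brighter Dh44-R2 probe set in PTIP cells moved from -1.83 to -1.28. Variances with a trend also called it, at 1.26, and gave 10 calls in Pc/ph+PTIP against PTIP. With replicates 2 and 3 only, 4 differences near 0 changed sign: Dh44 in PTIP cells to -4e-04, and Dh44-R1 in PTIP cells to 0.011, in Pc/ph+PTIP against Pc/ph to 0.018 and in the interaction to 0.0073. Exchanging numbers 2 and 3 in the Pc/ph and Pc/ph+PTIP groups, chosen after seeing the data, gave 1305, 290, 1072, 1109, 7 and 38 calls.

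Leaving out 1 array gave 475 to 1699, 134 to 477, 377 to 1563, 333 to 1561, 4 to 17 and 9 to 80 calls. CNMa ranged from -0.28 to 0.22 in PTIP and from 1.03 to 1.502 in Pc/ph cells. The brighter Dh44-R2 probe set ranged from -1.95 to -1.35 in Pc/ph and from -1.82 to -1.22 in Pc/ph+PTIP cells, and the dimmer one from -1.11 to -0.69 in the latter. Dh44 ranged from -0.035 to 0.14 in Pc/ph, -0.091 to 0.046 in Pc/ph+PTIP and -0.14 to 0.025 in Pc/ph+PTIP against Pc/ph. Dh44-R1 ranged from -0.059 to 0.013 in PTIP, -0.075 to 0.062 in Pc/ph+PTIP, -0.055 to 0.083 in Pc/ph+PTIP against PTIP and -0.15 to 0.019 in the interaction. The causes were not tested. Background signal limits what can be seen of Dh44, Dh44-R1 and CNMa in control cells.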
